A study of Mus musculus with 12 samples.

Results

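Genes of DNA replication and mitosis were followed in mouse mesenchymal stromal cells (MSCs) after a 6 h exposure to A1 alone or to A1 with ovalbumin. The group holds 40 genes chosen by symbol, of which 16 act at the G1/S transition and in DNA replication and 24 act in G2 and mitosis. Each symbol matched 1 row of the 55487 Ensembl genes in the deposited count table. All 40 passed the filter on low counts, which left 11314 protein-coding genes for testing. The rule that chose them used gene names and no measured value, but the names were picked with earlier results of these data known.

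The cells were primary wild type (WT) C57BL/6 MSCs from bone marrow, which the study took from the femurs of young female mice and expanded over many passages before freezing. All 3 groups shared that origin and the same serum-containing medium, and treatment began once the cultures were past 80% confluency. Control MSCs (4 samples) received no A1, A1-treated MSCs (4 samples) received 50 uM A1 for 6 h, and A1 + OVA-treated MSCs (4 samples) received 50 uM A1 and 1 mg/mL ovalbumin (OVA, egg white albumin used as a model antigen) for 6 h. A1 is a variant of Accum, a bile acid (cholic acid) joined to a nuclear localization signal peptide from hnRNPA1. OVA without A1 is not among these samples, so the addition of OVA was measured only on top of A1. The labels do not say whether the 4 samples of a group came from separate cultures or mice, and the p-values then measure the spread between these samples, which may be technical.

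A cell that commits to divide first passes the G1/S transition. Cyclin E with its kinase releases the E2F transcription factors, which switch on the genes that load and fire replication origins and copy DNA. Later, in G2 and mitosis, another wave of genes for cyclin B, spindle motors, kinetochores and the spindle checkpoint is switched on by the B-MYB, MuvB and FOXM1 factors. In resting or early G1 cells the DREAM complex keeps many genes of this later wave silent. It does so through a short promoter element, the cell cycle genes homology region (CHR), which often lies near CCAAT boxes bound by NF-Y. Cultured MSCs normally hold cells in every phase, and bulk RNA averages over them, so that a change in the number of cells in a phase and a change in the RNA per cell cannot be told apart here.

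Both classes were expressed in all 12 samples, and they differed in what A1 did. With A1 all 16 G1/S and replication genes rose. Of the 24 G2/M genes 8 rose, 6 fell and 10 did not pass the test. With OVA added to A1, 13 of the 16 G1/S genes and 9 of the 24 G2/M genes were lower than with A1 alone, a call that 6.81% of all tested genes had. A gene was called higher or lower at an adjusted p under 0.05 in edgeR's quasi-likelihood test over all 11314 genes. For A1 against control the background was high, because 62.7% of all tested genes were called in one direction or the other with A1.

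To show the regulatory sequence that the classes share, promoter windows from 250 bases before to 50 bases after the transcription start were taken from RefSeq (assembly GRCm38.p6). The table held windows for 33 members, 13 of the G1/S class and 20 of the G2/M class. It gave none for Ccna2, Mcm4, Ccne2, Tpx2, Aurkb, Kif20a and Gins2. An E2F motif was searched on both strands as TTTCCCGC, TTTCGCGC, TTTGCCGC or TTTGGCGC. The CHR core was searched as TTTGAA and the NF-Y element as CCAAT, both on either strand. The E2F motif was in the windows of 7 of the 13 G1/S genes (Mcm3, Mcm5, Mcm6, Mcm7, Cdc6, Cdt1 and Uhrf1), of 1 of the 20 G2/M genes (Cdk1) and of 2.60% of the 27025 genes in the table. The CHR core was in 3 of the 13 G1/S windows, in 15 of the 20 G2/M windows and in those of 20.2% of all genes. CCAAT was in 8 and 17 of them and in 41.1% of all genes. In the 250 bases before the start alone, the E2F motif was in 5 of the 13 G1/S genes (2.16% of all genes) and the CHR core in 9 of the 20 G2/M genes (18.3% of all genes). Counted per window, the shares among 32851 promoters were 2.26% for E2F, 17.9% for the CHR core and 37.4% for CCAAT. A match is a stretch of letters and not a bound site.

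The 170 bases before the start are printed for 4 replication genes whose E2F match lies inside that stretch, which rose with A1 by different amounts. Each reads 5′ to 3′ on the strand of the gene, and the capitals mark the E2F matches. In the stretches of Mcm5 and Mcm6, matches on opposite strands overlap in a single run of capitals. Mcm7 has another RefSeq start, whose window held no E2F match. The stretches of Cdc6 and Mcm7 precede the RefSeq start used here but lie inside the span of the gene in the GENCODE annotation.
Cdc6 promoter (chr11:98907981-98908150, plus strand): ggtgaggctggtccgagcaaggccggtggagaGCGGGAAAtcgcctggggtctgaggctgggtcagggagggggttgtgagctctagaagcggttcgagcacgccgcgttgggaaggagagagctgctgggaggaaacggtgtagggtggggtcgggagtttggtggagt
Mcm5 promoter (chr8:75109339-75109508, plus strand): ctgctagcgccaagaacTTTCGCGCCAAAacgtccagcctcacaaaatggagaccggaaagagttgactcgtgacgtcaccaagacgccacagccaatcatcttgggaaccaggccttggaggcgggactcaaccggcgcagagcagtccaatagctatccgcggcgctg
Mcm6 promoter (chr1:128359706-128359875, minus strand): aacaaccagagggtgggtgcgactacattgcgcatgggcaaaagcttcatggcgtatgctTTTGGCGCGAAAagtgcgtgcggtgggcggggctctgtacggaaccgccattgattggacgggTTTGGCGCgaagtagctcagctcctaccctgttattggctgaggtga
Mcm7 promoter (chr5:138171884-138172053, minus strand): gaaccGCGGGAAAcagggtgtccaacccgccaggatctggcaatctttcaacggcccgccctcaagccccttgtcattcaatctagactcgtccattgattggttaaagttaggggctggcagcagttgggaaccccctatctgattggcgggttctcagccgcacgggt

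For the G2/M class, 5 promoters with a CHR core are printed because they carry the same elements while their genes moved in different directions with A1. Cdk1 and Cdc20 rose and Ccnb2, Mki67 and Kif11 fell. The capitals mark TTTGAA and CCAAT on either strand (TTCAAA and ATTGG on the opposite one). Ccnb2 has a further CHR core that begins at base 5 after the start, outside the printed stretch.
Cdk1 promoter (chr10:69352913-69353082, minus strand): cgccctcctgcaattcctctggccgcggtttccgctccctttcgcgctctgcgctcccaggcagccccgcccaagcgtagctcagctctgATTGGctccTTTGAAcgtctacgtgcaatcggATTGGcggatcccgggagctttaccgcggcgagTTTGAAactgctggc
Cdc20 promoter (chr4:118437344-118437513, minus strand): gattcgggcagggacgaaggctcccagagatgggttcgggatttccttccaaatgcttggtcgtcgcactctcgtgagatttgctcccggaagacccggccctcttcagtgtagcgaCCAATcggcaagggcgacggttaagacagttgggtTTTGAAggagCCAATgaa
Ccnb2 promoter (chr9:70421555-70421724, minus strand): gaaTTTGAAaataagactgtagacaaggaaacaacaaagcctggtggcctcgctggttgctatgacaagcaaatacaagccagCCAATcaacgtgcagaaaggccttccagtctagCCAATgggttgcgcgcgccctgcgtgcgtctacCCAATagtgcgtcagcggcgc
Mki67 promoter (chr7:135716380-135716549, minus strand): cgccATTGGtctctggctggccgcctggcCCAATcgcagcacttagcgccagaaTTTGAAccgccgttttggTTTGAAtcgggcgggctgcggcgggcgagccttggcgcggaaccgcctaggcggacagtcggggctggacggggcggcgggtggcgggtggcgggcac
Kif11 promoter (chr19:37376212-37376381, plus strand): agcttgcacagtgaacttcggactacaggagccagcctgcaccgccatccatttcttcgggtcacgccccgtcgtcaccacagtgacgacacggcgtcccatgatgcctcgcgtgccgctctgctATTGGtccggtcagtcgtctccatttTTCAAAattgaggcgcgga
The median log2 fold change with A1 was 0.09 for the 15 G2/M genes with a CHR core in the window and -0.01 for the 5 without. With the 250 bases before the start alone, it was 0.08 for the 9 with the core and 0.06 for the 11 without, so that the difference rested on the window. For the G1/S genes it was 0.34 for the 7 with an E2F match and 0.39 for the 6 without. The window of E2f1, among those without, lies wholly inside the span of the gene in the GENCODE annotation. Sequence before the GENCODE start of E2f1 was therefore not searched. Members with and without each element overlapped in their changes.

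Depth was 13702348 to 14347870 counts per sample with A1, 14359973 to 16674294 with A1 + OVA and 15644991 to 16881995 in control MSCs. All A1 samples thus lay below all controls in depth. The normalization factors also differed by group, at 0.9745 to 0.9882 with A1, 0.9819 to 0.9932 with A1 + OVA and 1.026 to 1.042 in control MSCs. The smallest count of any member in any sample was 385, well above the floor of 3 counts. The cells were checked against marker lists. The summed level of 12 MSC markers was 9568 to 9990 CPM (counts divided by the normalized library size) in control MSCs, 7914 to 8270 with A1 and 8056 to 8301 with A1 + OVA. Thy1 and Lepr among them did not pass the filter on low counts. Of the 10 that passed, 2 were called higher with A1 (31.7% of all tested genes) and 4 lower (31.1%). Their log2 fold changes ran from -1.37 to 1.39, so the sum hides moves of single markers in both directions. Macrophage markers (8 genes) summed to 10.7 to 11.8, 15.3 to 17.5 and 12.6 to 15.3 CPM in the same order. Of the 3 that passed the filter, Cd14 and Mrc1 were called higher with A1, at 0.57 log2 units (SE 0.09, adjusted p = 9.29e-06) and 1.01 (SE 0.18, adjusted p = 4.71e-05), and lower with A1 + OVA than with A1, at -0.29 (adjusted p = 0.0322) and -0.64 (adjusted p = 0.0177), and Cd68 was not called in either. Adgre1, Itgam and Fcgr1, among the defining markers of that lineage, had at most 3 counts in every sample. Other leukocyte markers summed to at most 0.396 CPM, endothelial markers to at most 0.916 CPM and erythroid markers to at most 0.0591 CPM. The part of these differences in the results that follow was not tested.

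In units per length (RPKM, the CPM divided by the exon length in kilobases), the highest of the 40 genes in control MSCs was Pcna, the sliding clamp of the replication fork, at 76.3 ± 2.15 (SD, n = 4). Mcm4, a subunit of the replicative helicase, followed at 68.5 ± 3.81. Tpx2 (59.1), Ccna2 (58.3) and Mki67 (56.3) came next and overlapped between samples. The lowest were Cenpf (9.79), Cdc45 (9.23), Gins2 (7.92) and Cdc6 (4.87 RPKM). In this order 29 of the 39 neighbouring pairs overlapped between control samples. Levels between these ends are therefore ordered only coarsely. Both classes held genes near the top of the order, but the low end held mostly G1/S genes. From Ccne2 (14.9 RPKM) downward these were Ccne2, Ccne1, E2f1, Cdt1, Cdc45, Gins2 and Cdc6. The G2/M genes there were Kif23 and Cenpf.

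A1 raised every G1/S and replication gene. All 16 were called higher (31.7% of all tested genes were). In all 16 the 4 A1 samples lay above the 4 control samples, as in 3165 of the 11314 tested genes. Counting both directions, 54.4% of all tested genes had A1 samples wholly above or wholly below the controls. The median log2 fold change of the class was 0.34, against -0.0017 for all tested genes, and single genes ranged from 0.12 (Mcm7) to 0.69 (Cdc6). Only Cdc6, Cdt1, Fen1 and Ccne2 also reached a log2 fold change of 0.5, beside 9.41% of all tested genes.

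The largest rises were in the RNA of the genes whose proteins load the helicase onto origins. Cdc6, a loader that acts before S phase, stood at 23.8, 26.5, 25.9 and 25.7 CPM in the control samples, at 41.3, 38.2, 42.98 and 41.8 CPM with A1 and at 34.1, 33.9, 34.5 and 33.5 CPM with A1 + OVA. The 3 groups did not overlap, and A1 + OVA lay between the others. The A1 level was 1.61-fold the control level (log2 fold change 0.69, SE 0.05, adjusted p = 3.15e-10). Cdt1, its partner in loading, was measured at 30.8, 29.97, 30.4 and 34.99 CPM in control MSCs, at 51.9, 50.8, 42.8 and 45.8 CPM with A1 and at 41.7, 39.95, 47.99 and 42.3 CPM with A1 + OVA. Both treated groups lay above the control and overlapped each other. The change with A1 was 1.52-fold (log2 fold change 0.60, SE 0.07, adjusted p = 1.77e-07).

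Regulators of the G1/S transition rose as well. Cyclin E binds CDK2 to start S phase, and its gene Ccne2 gave 50.4, 54.1, 49.4 and 54.5 CPM in control MSCs, 76.2, 71.2, 80.1 and 68.3 CPM with A1 and 65.8, 62.4, 63.7 and 58.4 CPM with A1 + OVA. Again the 3 groups were separate, with A1 the highest (log2 fold change 0.50, SE 0.05, adjusted p = 5.82e-08). The other cyclin E gene, Ccne1, was very even in control MSCs at 28.6, 29.1, 28.8 and 29.1 CPM. It rose to 40.6, 39.2, 38.2 and 36.96 CPM with A1 and read 33.4, 38.7, 32.1 and 32.1 CPM with A1 + OVA. All treated samples were above all controls, and 1 A1 + OVA sample reached into the A1 range (log2 fold change 0.42, SE 0.06, adjusted p = 3.25e-06 for A1). E2f1, an activator of the class and itself an E2F target, was at 34.4, 30.9, 30.4 and 32.4 CPM in control MSCs, at 43.03, 39.9, 38.2 and 37.9 CPM with A1 and at 36.3, 34.3, 39.3 and 34.9 CPM with A1 + OVA. The A1 samples lay above the controls, while the lowest A1 + OVA sample overlapped the highest control (log2 fold change 0.31, SE 0.06, adjusted p = 0.00012 for A1).

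At the fork, Fen1, which trims the flaps of Okazaki fragments, stood at 51.98, 43.7, 52.04 and 52.5 CPM in control MSCs, at 77.4, 69.5, 70.1 and 68.98 CPM with A1 and at 56.2, 62.4, 63.7 and 57.99 CPM with A1 + OVA. No groups overlapped (log2 fold change 0.51, SE 0.06, adjusted p = 1.76e-07 for A1). The clamp gene Pcna gave 185, 180.1, 189 and 178 CPM in control MSCs, 237, 227, 243 and 227 CPM with A1 and 212, 201, 191 and 197 CPM with A1 + OVA, again without overlap (log2 fold change 0.35, SE 0.04, adjusted p = 1.07e-07 for A1). Uhrf1, which brings the maintenance methyltransferase to new DNA, rose by a log2 fold change of 0.35 (SE 0.04, adjusted p = 3.31e-07). Processed copies of Pcna could share reads with it, but they held at most 34 counts in a sample against at least 2835 for Pcna.

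Changes were smaller for most subunits of the helicase. The MCM2-7 ring unwinds DNA, and its 6 genes had log2 fold changes from 0.12 to 0.34 with A1. Mcm2 stood at 164, 151, 162 and 162 CPM in control MSCs, at 192, 173, 166 and 181 CPM with A1 and at 162, 153, 158 and 153 CPM with A1 + OVA. The A1 samples lay just above the controls, and the A1 + OVA samples overlapped them (log2 fold change 0.16, SE 0.04, adjusted p = 0.00322 for A1). Mcm4 gave 226, 255, 253 and 249 CPM in control MSCs, 286, 279.5, 280.5 and 289.9 CPM with A1 and 231, 229, 237 and 233 CPM with A1 + OVA. Mcm5 gave 136, 125, 134 and 136 CPM in control MSCs, 163, 144, 152 and 153 CPM with A1 and 125, 116, 127 and 120.3 CPM with A1 + OVA. In both genes A1 was above control and A1 + OVA was well below A1. The log2 fold changes with A1 were 0.21 (SE 0.04, adjusted p = 9.16e-05) for Mcm4, 0.20 (SE 0.04, adjusted p = 0.000349) for Mcm5, 0.31 (SE 0.04, adjusted p = 4.33e-06) for Mcm3, 0.34 (SE 0.04, adjusted p = 1.15e-07) for Mcm6 and 0.12 (SE 0.04, adjusted p = 0.0127) for Mcm7. The smallest of these, Mcm7, was no longer called without control replicate 2 (adjusted p = 0.0523), without A1 replicate 4 (0.06) or with upper-quartile factors (0.0526). Cdc45 and Gins2, which join the ring to form the active helicase, rose by 0.42 log2 units (SE 0.06, adjusted p = 1.29e-06) and 0.23 (SE 0.07, adjusted p = 0.00466). Scaled by library size alone, Mcm2, Mcm7 and Gins2 lost their calls while the other 13 genes of the class were still called higher.

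**Figure D1:**
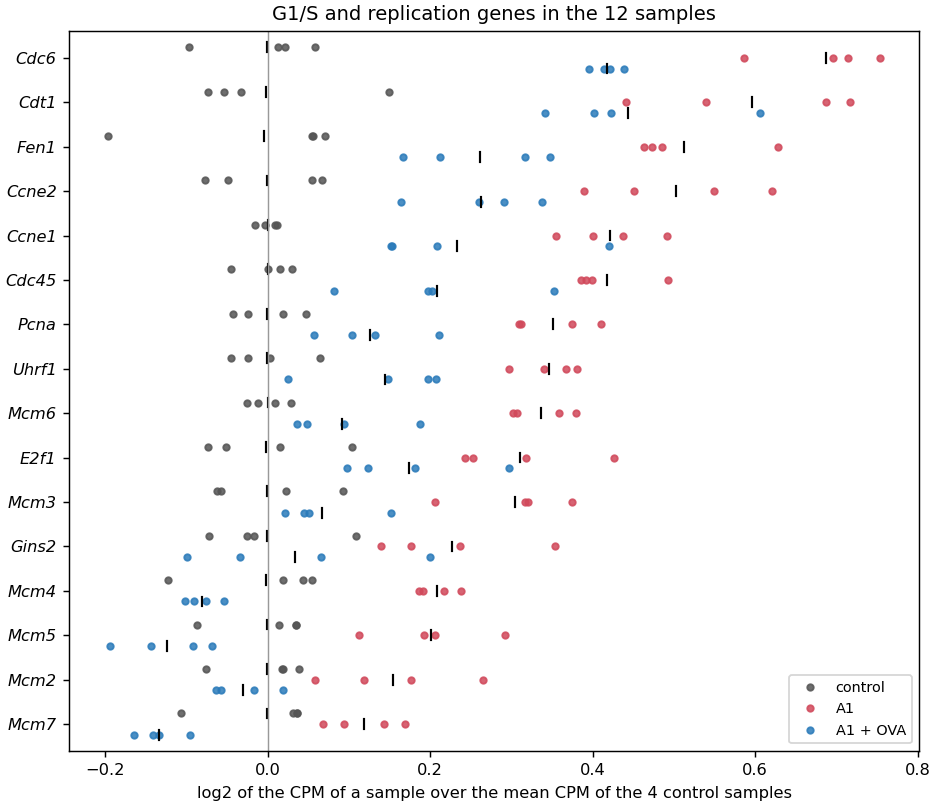
Each point is 1 sample (4 per group), placed by the log2 of its CPM over the mean CPM of the 4 control samples (x axis), for each of the 16 G1/S and replication genes (y axis, ordered by the change with A1), with a bar at the mean of each group. The A1 points lie to the right of all control points in all 16 genes, and the A1 + OVA points lie between the other groups for Cdc6 and Ccne2 and overlap or lie below the control for Mcm5 and Mcm7.

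The G2/M genes had no common direction with A1. Of 24, 8 were called higher (background 31.7%), 6 lower (background 31.1%) and 10 were not called. Either share is close to its background. The median log2 fold change was 0.06 and became -0.02 with scaling by library size alone. None reached a log2 fold change of 0.5 in either direction, beside 9.41% of all tested genes upward and 11.6% downward. All 4 A1 samples lay above all controls in 7 genes and below them in 5, which together is 12 of 24 beside the 54.4% of all tested genes.

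Those that rose were spread over the spindle, the kinases and the anaphase machinery. Kif23, a motor of the central spindle and midbody, stood at 91.2, 93.7, 103 and 99.1 CPM in control MSCs, at 115, 122, 118 and 123 CPM with A1 and at 107, 112, 112 and 106 CPM with A1 + OVA. The 3 groups were separate (log2 fold change 0.31, SE 0.04, adjusted p = 2.18e-06 for A1). Aurka, the kinase of spindle poles, gave 78.04, 65.8, 75.99 and 70.9 CPM in control MSCs, 94.01, 84.4, 87.2 and 90.6 CPM with A1 and 86.2, 78.3, 74.9 and 71.9 CPM with A1 + OVA. A1 lay above the controls and A1 + OVA overlapped both (log2 fold change 0.29, SE 0.06, adjusted p = 0.000154 for A1). Cdk1, the kinase that drives entry into mitosis, was at 210.5, 205, 209 and 203 CPM in control MSCs, at 236, 227, 235 and 239 CPM with A1 and at 218, 209, 215 and 208 CPM with A1 + OVA. Its samples were tight, and the A1 samples lay above all others (log2 fold change 0.18, SE 0.03, adjusted p = 0.000115 for A1). Prc1, which bundles microtubules of the central spindle, rose by 0.27 log2 units (SE 0.03, adjusted p = 2.79e-07), and Anln, a scaffold of the cytokinetic ring, by 0.18 (SE 0.04, adjusted p = 0.000304). Birc5 (survivin, of the chromosomal passenger complex) rose by 0.18 log2 units (SE 0.04, adjusted p = 0.000752). Ube2c and Cdc20, which serve the anaphase-promoting complex, rose by 0.20 log2 units (SE 0.04, adjusted p = 0.000277) and 0.15 (SE 0.05, adjusted p = 0.0195). The Cdc20 call was lost without control replicate 2 (adjusted p = 0.0886), A1 replicate 1 (0.058) or A1 replicate 4 (0.0715), with upper-quartile factors (0.0584) and with scaling by library size alone (0.294).

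Those that fell included the proliferation marker. Mki67, which coats mitotic chromosomes, stood at 481.3, 581.2, 673.2 and 531.5 CPM in control MSCs, at 369.8, 464.9, 338.5 and 442.5 CPM with A1 and at 367.3, 372.6, 432.1 and 480.6 CPM with A1 + OVA. All treated samples lay below every control sample, by a narrow margin for the highest A1 + OVA sample, and the samples of each group were widely spread (log2 fold change -0.49, SE 0.10, adjusted p = 0.000212 for A1). Ccnb2, a cyclin B gene, gave 60.2, 58.5, 59.6 and 57.8 CPM in control MSCs, 49.3, 43.9, 46.6 and 45.2 CPM with A1 and 46.5, 45.3, 46.7 and 40.2 CPM with A1 + OVA. Both treated groups were far below the control and overlapped each other (log2 fold change -0.35, SE 0.05, adjusted p = 5.28e-06 for A1). A processed copy of Ccnb2 held at most 6 counts in a sample against at least 575 for Ccnb2. Cenpf, of the outer kinetochore, was at 135, 157, 165 and 148 CPM in control MSCs, at 119, 139, 109 and 130.3 CPM with A1 and at 115, 112, 125 and 141 CPM with A1 + OVA. It was called lower with A1, but 1 A1 sample lay inside the control range (log2 fold change -0.28, SE 0.07, adjusted p = 0.00213). Nusap1, which stabilizes spindle microtubules, fell as well, with a log2 fold change of -0.28 (SE 0.04, adjusted p = 8.04e-06). The spindle motor Kif11 had -0.17 log2 units (SE 0.04, adjusted p = 0.000792), and the checkpoint kinase homologue Bub1b had -0.16 (SE 0.04, adjusted p = 0.00197).

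Among the 10 genes not called were central mitotic genes. Ccnb1, the main mitotic cyclin, read 99.5, 101, 103 and 100.3 CPM in control MSCs, 109.6, 103, 101.9 and 107 CPM with A1 and 97.4, 98.5, 99.3 and 96.9 CPM with A1 + OVA. Top2a, which untangles sister chromosomes, read 405, 455, 482 and 436 CPM in control MSCs, 467, 484, 428 and 499 CPM with A1 and 443, 422, 449.6 and 472 CPM with A1 + OVA. The groups overlapped between A1 and control in both genes (log2 fold change 0.06, SE 0.04, adjusted p = 0.127 for Ccnb1 and log2 fold change 0.08, SE 0.05, adjusted p = 0.199 for Top2a). The 2 cyclin B genes thus gave log2 fold changes of 0.06 and -0.35, and no test was made of the difference between genes. The other log2 fold changes were -0.05 (adjusted p = 0.446) for cyclin A2 (Ccna2), -0.04 (adjusted p = 0.32) for the checkpoint kinase Bub1, -0.03 (adjusted p = 0.642) for the kinase of the passenger complex Aurkb and 0.09 (adjusted p = 0.108) for Polo-like kinase Plk1. They were -0.01 log2 units (adjusted p = 0.931) for the kinetochore motor Cenpe, 0.06 (adjusted p = 0.136) for the cytokinesis motor Kif20a, 0.07 (adjusted p = 0.146) for the spindle factor Tpx2 and 0.06 (adjusted p = 0.325) for the RhoA activator Ect2. Plk1 passed the threshold without control replicate 3 (adjusted p = 0.0426), and Bub1 was called lower with scaling by library size alone (adjusted p = 0.00483). For each of the 10 genes the log2 fold change given above was within 0.09 log2 units of no change.

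**Figure D2:**
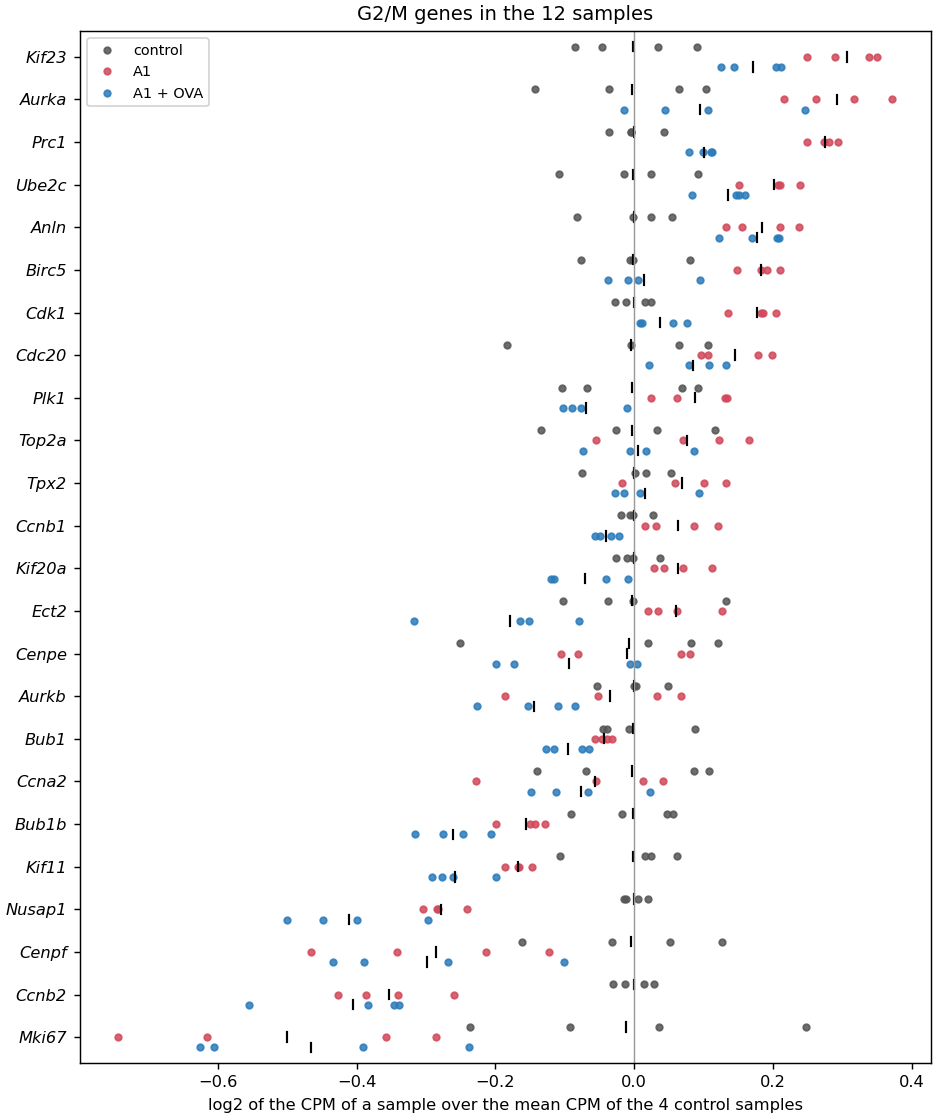
Each point is 1 sample (4 per group), placed by the log2 of its CPM over the mean CPM of the 4 control samples (x axis), for each of the 24 G2/M genes (y axis, ordered by the change with A1), with a bar at the mean of each group. The A1 points lie to the right of the controls for Kif23, Aurka and Prc1 and to the left for Mki67, Ccnb2 and Nusap1, and the points of Mki67 are the most widely spread within groups.

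Read sample by sample, the classes diverged. The median G1/S gene, relative to the control mean, was between -0.04 and 0.02 log2 units in control samples, between 0.30 and 0.38 with A1 and between 0.08 and 0.18 with A1 + OVA. The G2/M median was between -0.04 and 0.03 in control samples, between -0.0006 and 0.10 with A1 and between -0.07 and -0.02 with A1 + OVA. For G1/S the 3 groups did not overlap. For G2/M both treated groups overlapped the controls. The summed level of the 16 G1/S genes was 1615 to 1680 CPM in control MSCs, 1992 to 2099 CPM with A1 and 1674 to 1765 CPM with A1 + OVA. For the 24 G2/M genes the sums were 3919 to 4356, 3889 to 4225 and 3799 to 3924 CPM. The ratio of the sums, G1/S over G2/M, was 0.384 to 0.417 in control MSCs, 0.475 to 0.514 with A1 and 0.427 to 0.453 with A1 + OVA. This ratio separated the 3 groups in every sample, with A1 the highest. It carries no p-value, since the genes of a class are not replicates of each other.

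**Figure D3:**
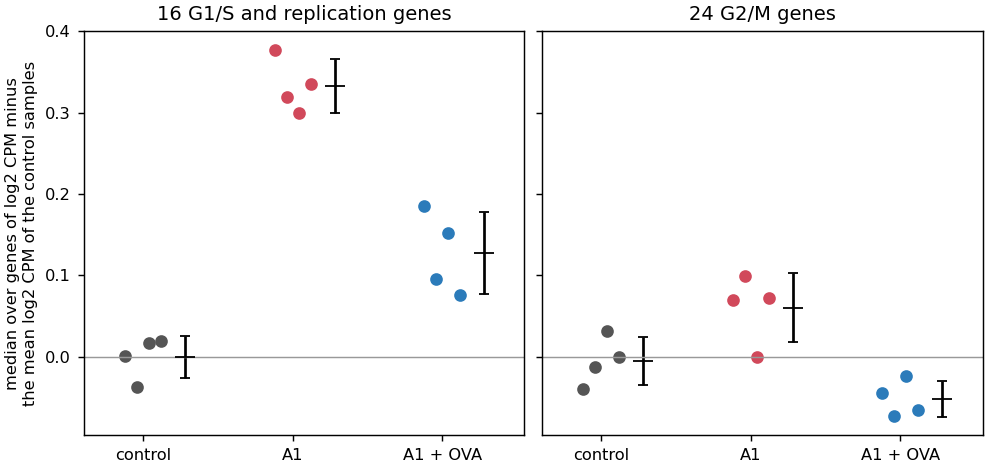
Each point is 1 sample, placed at the median over the 16 G1/S and replication genes (left panel) or the 24 G2/M genes (right panel) of log2 CPM minus the mean log2 CPM of the control samples, and the bars beside the points are the mean and SD of the 4 samples. The A1 samples sit at 0.30 to 0.38 and the A1 + OVA samples at 0.08 to 0.18 for G1/S, both above the controls, while the G2/M medians of all samples lie between -0.07 and 0.10.

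With A1 + OVA compared with control, 10 of the 16 G1/S genes were called higher (29.7% of all tested genes), 2 lower (27.9%) and 4 were not called. The median log2 fold change was 0.14, against 0.0036 for all tested genes. No member of either class reached 0.5, which 8.92% of all tested genes did upward and 8.79% downward. The licensing genes again led, with log2 fold changes of 0.45 (SE 0.07, adjusted p = 1.22e-05) for Cdt1 and 0.42 (SE 0.05, adjusted p = 9.75e-07) for Cdc6. Next came 0.26 log2 units (adjusted p = 0.000747) for Fen1, 0.26 (adjusted p = 0.000314) for Ccne2, 0.24 (adjusted p = 0.00193) for Ccne1, 0.21 (adjusted p = 0.00301) for Cdc45, 0.18 (adjusted p = 0.0158) for E2f1, 0.15 (adjusted p = 0.00548) for Uhrf1 and 0.13 (adjusted p = 0.00953) for Pcna. The helicase genes gave mixed calls. Mcm5 and Mcm7 were called lower at -0.12 log2 units (SE 0.04, adjusted p = 0.0186) and -0.13 (SE 0.04, adjusted p = 0.00679), and Mcm6 was called higher at 0.09 (SE 0.04, adjusted p = 0.0432). With their log2 fold changes, Mcm2 (-0.03), Mcm3 (0.07), Mcm4 (-0.08) and Gins2 (0.03) were not called.

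Several of these small changes depended on single samples or on the settings of the fit. The Mcm5 call was lost without control replicate 4 (adjusted p = 0.0545) or A1 + OVA replicate 2 (0.0762), which left 1 G1/S gene lower. The E2f1 call was lost without control replicate 3 (0.0551) or A1 + OVA replicate 3 (0.07). Mcm6 lost its call without any 1 of the 4 controls, of A1 replicates 1, 3 and 4 or of A1 + OVA replicates 1 and 2 (0.0508 to 0.185). It also lost it with DESeq2 (0.0619), with upper-quartile factors (0.112), with library size alone (0.564), without a filter on low counts (0.091), with at least 10 counts in every sample (0.0502), with all genes of the table (0.0857) and with only the groups compared (0.096). Mcm4 was called lower without control replicate 1 (0.00535), with upper-quartile factors (0.025) and with library size alone (0.00227). Scaling by library size alone also ended the calls of Pcna (0.191), E2f1 (0.136) and Uhrf1 (0.11).

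The G2/M genes again had no common direction with A1 + OVA. In this class 9 of 24 were lower than in control MSCs (background 27.9%), 4 were higher (29.7%) and 11 were not called. The median log2 fold change was -0.07, and it was -0.04 without control replicate 3. The count of lower genes was 7 without control replicate 3, A1 + OVA replicate 3 or A1 + OVA replicate 4, and 14 with scaling by library size alone. The genes that fell, with their log2 fold changes, were Nusap1 (-0.41), Mki67 (-0.46), Ccnb2 (-0.40), Cenpf (-0.29), Bub1b (-0.26), Kif11 (-0.26), Ect2 (-0.18), Aurkb (-0.14) and Bub1 (-0.10). Their adjusted p-values ran from 3.39e-08 for Nusap1 to 0.032 for Bub1. Those that rose, on the same scale, were Anln (0.18), Kif23 (0.17), Ube2c (0.14) and Prc1 (0.10). The 6 genes that A1 alone lowered were all lower here too, and the comparisons share their control samples. Bub1 lost its call without control replicates 2 or 3 or A1 + OVA replicates 3 or 4 (adjusted p 0.0536 to 0.122). Aurkb lost it without control replicates 3 or 4 or A1 + OVA replicates 3 or 4 (0.0504 to 0.0958), and Cenpe was called lower without control replicate 1 (0.0147). Without a filter on low counts, Bub1 (0.0542) and Prc1 (0.0557) were not called.

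Comparing A1 + OVA with A1 directly tests what differed when OVA was present. Here 13 of 16 G1/S genes were called lower, against 6.81% of all tested genes, and 0 were called higher, against 6.05%. In 12 of the 16 all 4 A1 + OVA samples lay below all 4 A1 samples (9.58% of all tested genes). The class median was -0.23 log2 units, beside 0.0057 for all tested genes, and all 16 values were negative. Mcm5 and Mcm4 differed most, at -0.33 log2 units (SE 0.04, adjusted p = 3.46e-05) and -0.29 (SE 0.04, adjusted p = 4.31e-05), followed by the loader Cdc6 at -0.27 (adjusted p = 0.00149). The other helicase subunits were spread over the order, with Mcm7 at -0.25 log2 units (adjusted p = 0.000255), Mcm6 at -0.24 (adjusted p = 0.000214), Mcm3 at -0.24 (adjusted p = 0.00124) and Mcm2 at -0.19 (adjusted p = 0.00635). Fen1 had -0.25 log2 units (adjusted p = 0.00754), Ccne2 -0.24 (adjusted p = 0.005), Pcna -0.23 (adjusted p = 0.000664), Cdc45 -0.21 (adjusted p = 0.0156), Uhrf1 -0.20 (adjusted p = 0.00296) and Ccne1 -0.18 (adjusted p = 0.0461). For Gins2 (-0.20 log2 units, adjusted p = 0.0563), Cdt1 (-0.15, adjusted p = 0.143) and E2f1 (-0.14, adjusted p = 0.139) the difference did not pass. Ccne1 was no longer called without any 1 of control replicates 3 and 4, A1 replicates 1, 2 and 3 or A1 + OVA replicates 1, 3 and 4 (0.0569 to 0.149). Nor was it called with DESeq2 (0.0565), upper-quartile factors (0.0529), library size alone (0.0692) or only the groups compared (0.0639). Cdc45 was no longer called without A1 replicate 4 (0.0544) or A1 + OVA replicate 2 (0.0638). Gins2 was called lower without control replicate 1 (0.0442), A1 replicate 3 (0.0466) or A1 + OVA replicate 1 (0.0134), and without a filter on low counts (0.0316).

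Of the 24 G2/M genes 9 were called lower with A1 + OVA than with A1, against 6.81% of all tested genes. In the other direction 0 were called higher, against 6.05%. The median was -0.10 log2 units, and 11 genes had all A1 + OVA samples below all A1 samples (9.58% of all tested genes). Ect2, which directs the cleavage furrow, showed the largest difference. It read 83.5, 98.2, 87.3 and 89.5 CPM in control MSCs, 91.8, 97.9, 93.5 and 90.8 CPM with A1 and 84.8, 80.7, 79.9 and 71.9 CPM with A1 + OVA. The A1 + OVA samples lay below all A1 samples, while control and A1 overlapped (log2 fold change -0.24, SE 0.05, adjusted p = 0.005). The others called lower were Aurka (-0.20 log2 units, adjusted p = 0.0284), Prc1 (-0.17, adjusted p = 0.00133), Birc5 (-0.17, adjusted p = 0.0116), Plk1 (-0.16, adjusted p = 0.0327), Cdk1 (-0.14, adjusted p = 0.00911), Kif23 (-0.14, adjusted p = 0.0398), Kif20a (-0.13, adjusted p = 0.0194) and Nusap1 (-0.13, adjusted p = 0.049). Mki67 was not among them, at 0.03 log2 units (SE 0.10, adjusted p = 0.865), nor was Ccnb2, at -0.05 (SE 0.05, adjusted p = 0.564). For both, the values with A1 and with A1 + OVA overlapped.

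These G2/M calls were the least firm. Without A1 replicate 1 the count of lower genes was 5, and without A1 + OVA replicate 2 or replicate 4 the count was 4. Cdk1, Birc5, Prc1 and Ect2 passed in every leave-one-out fit. Aurka lost its call without A1 replicates 1 or 4 or A1 + OVA replicates 2, 3 or 4 (adjusted p 0.0506 to 0.11). Plk1 lost it without A1 replicates 1 or 2 or A1 + OVA replicates 1, 2 or 4 (0.0596 to 0.0876), and Kif20a without A1 replicate 1 or A1 + OVA replicates 2 or 4 (0.058 to 0.0708). Kif23 lost it without A1 replicates 2, 3 or 4 or A1 + OVA replicates 1, 2 or 4 (0.0528 to 0.121). Nusap1 lost it without control replicates 3 or 4, any A1 replicate or A1 + OVA replicates 2, 3 or 4 (0.0612 to 0.158). It was also lost with DESeq2 (0.0575), upper-quartile factors (0.0568), library size alone (0.0769), no filter on low counts (0.0644) and only the groups compared (0.066). With library size alone Plk1 (0.0579) and Kif23 (0.0624) were not called either.

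**Figure D4:**
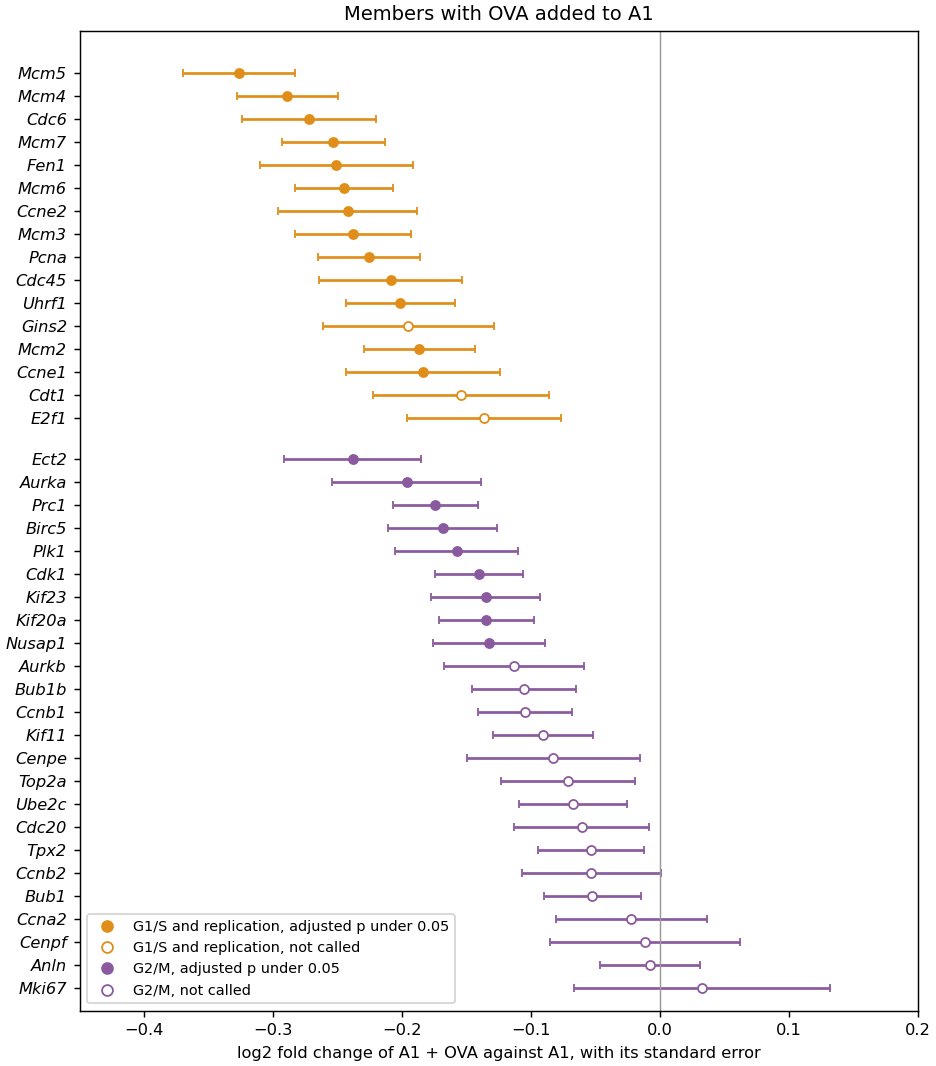
Each point is the log2 fold change of A1 + OVA against A1 for 1 gene (x axis) with its standard error, for the 16 G1/S and replication genes and the 24 G2/M genes (y axis), and filled points are genes with an adjusted p under 0.05. All 16 G1/S genes and 23 of 24 G2/M genes lie left of 0, from -0.33 for Mcm5 to 0.03 for Mki67.

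Mki67 varied most between samples of 1 group, with a within-group SD of 0.20 log2 units. Cenpf (0.14) and Cenpe (0.13) followed, and Prc1 varied least (0.02). Over the 12 samples, with group means removed, the deviations of Mki67 ran with those of Cenpf (Pearson r = 0.974), Top2a (0.920) and Cenpe (0.896). These genes have long transcripts, with 10061 bases of exon for Mki67, 15433 for Cenpf, 9013 for Top2a and 8620 for Cenpe. All genes of a sample share its library and its depth. The 100 tested genes whose deviations were most like those of Mki67 (r of at least 0.895) had a median exon length of 14928.5 bases, against 4617 for the genes compared. Their median log2 fold change with A1 was -0.11. Among all tested genes, the 2155 with over 8000 bases of exon had a median of -0.06 on the log2 scale with A1, and the 1258 with up to 2000 bases had 0.06. Of the 6 members with over 8000 bases, Mki67 and Cenpf fell with A1, Anln (9063 bases) and Prc1 (8225) rose, and Top2a and Cenpe were not called, at log2 fold changes of 0.08 and -0.01. Ccnb2, which also fell, has 1531 bases. The part of transcript length in these results was not tested.

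**Figure D5:**
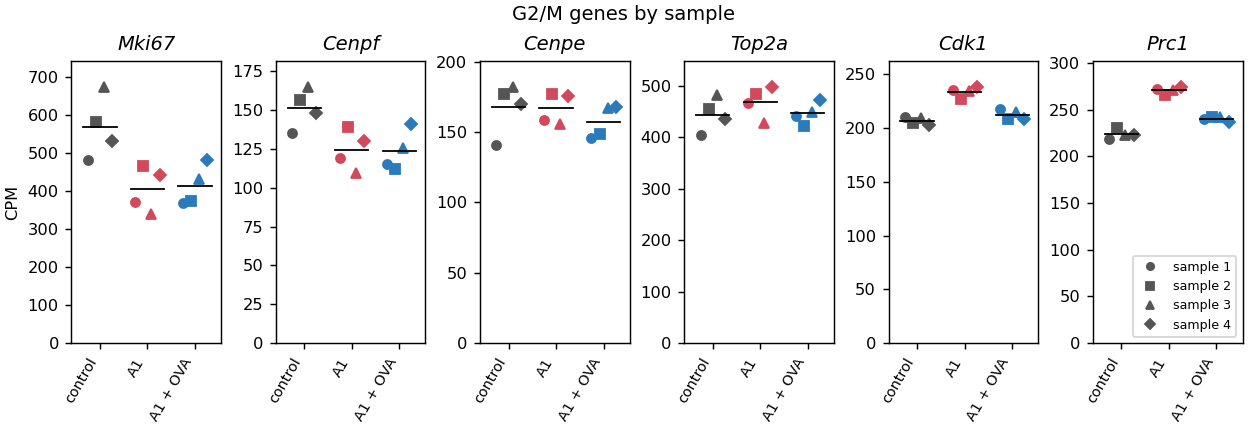
CPM (y axis, from 0) of 6 G2/M genes in the 4 samples of each group (x axis), with 1 symbol per replicate number and a line at the mean of each group. In Mki67, Cenpf, Cenpe and Top2a the same samples of a group are high or low together, as with control sample 3, while Cdk1 and Prc1 vary little within a group and are highest with A1.

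Further genes of the cell cycle, from lists that hold none of the 40, are given in the order of the cycle, replication and mitosis first and their regulators after. The background shares are those given above for each comparison. Of 42 further replication factors, 19 were called higher with A1 and 4 lower, with a median log2 fold change of 0.11. The origin recognition genes Orc1 and Orc2 and the initiation factor Mcm10 rose the most, by 0.80 log2 units (SE 0.06, adjusted p = 6.08e-10), 0.76 (SE 0.05, adjusted p = 4.37e-12) and 0.62 (SE 0.06, adjusted p = 1.31e-08). Lig1, the ligase that seals Okazaki fragments, fell (-0.26 log2 units, SE 0.04, adjusted p = 1.88e-05), as did Orc3 (-0.21, SE 0.05, adjusted p = 0.000749) and Rpa1 (-0.19, SE 0.03, adjusted p = 4.68e-05), a subunit of the single-strand binding protein. Against control, A1 + OVA gave 10 higher and 7 lower, and against A1 alone it gave 0 higher and 17 lower.

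Of 52 further mitosis genes, 11 were called higher with A1 and 14 lower, with a median of 0.01. Kif18a (0.33 log2 units, SE 0.05, adjusted p = 1.05e-05), Ccnf (0.31, SE 0.05, adjusted p = 2.12e-05) and Cks1b (0.29, SE 0.05, adjusted p = 2.89e-05) rose the most, and Psrc1 (-0.41, SE 0.09, adjusted p = 0.000727), Aspm (-0.39, SE 0.08, adjusted p = 0.00039) and the condensin subunit Ncapd2 (-0.33, SE 0.04, adjusted p = 1.36e-06) fell the most. For A1 + OVA the counts were 3 higher and 22 lower against control, and 0 higher and 17 lower against A1 alone.

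The regulators upstream of G1/S moved strongly in both directions. Of 28 genes, 27 were tested (Cdkn1c did not pass the filter), and 13 were called higher and 10 lower with A1. Myc, a growth-promoting transcription factor, went from 66.8 to 137 CPM, and its log2 fold change was 1.03 (SE 0.04, adjusted p = 8.55e-15). Cyclin D1 (Ccnd1), which starts the release of E2F, went from 225 to 323 CPM (0.52 log2 units, SE 0.03, adjusted p = 2.09e-11). E2f2 and E2f8 rose by 0.75 log2 units (SE 0.17, adjusted p = 0.000777) and 0.66 (SE 0.05, adjusted p = 8.61e-11). The inhibitors of cyclin-dependent kinases went in different directions, since Cdkn2b (p15), Cdkn2d (p19) and Cdkn1b (p27) fell and Cdkn1a (p21) rose. Their log2 fold changes were -0.88 (SE 0.06, adjusted p = 1.45e-11), -0.65 (SE 0.09, adjusted p = 1.22e-06), -0.49 (SE 0.04, adjusted p = 2.06e-10) and 0.51 (SE 0.06, adjusted p = 1.21e-07). The pocket protein Rbl2 (p130), a part of DREAM, fell at -0.54 log2 units (SE 0.06, adjusted p = 9.83e-08). In A1 + OVA-treated MSCs 12 exceeded the control and 8 fell below it, and Myc had 0.95 log2 units (SE 0.04, adjusted p = 3.54e-14). Against A1 alone 1 was higher (Cdkn2b, 0.24 log2 units, SE 0.06, adjusted p = 0.0117) and 7 were lower, Ccnd1 among them (-0.15, SE 0.03, adjusted p = 0.00715).

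Transcription factors and MuvB subunits of the late wave formed a list of 11, of which 4 were higher and 1 lower with A1. Mybl2 (B-MYB), an E2F target, rose by 0.83 log2 units (SE 0.05, adjusted p = 8.19e-12). The MuvB subunit Lin9 rose by 0.35 log2 units (SE 0.06, adjusted p = 1.31e-05) and Foxm1 by 0.24 (SE 0.04, adjusted p = 5.36e-05), and Rbbp4 fell at -0.12 (SE 0.04, adjusted p = 0.0153). A1 + OVA against control gave 2 higher and 3 lower. Against A1 alone it gave 3 lower, with Mybl2 at -0.41 log2 units (SE 0.05, adjusted p = 2e-05), Lin9 at -0.26 (SE 0.06, adjusted p = 0.00305) and Foxm1 at -0.17 (SE 0.04, adjusted p = 0.00925). Of 16 checkpoint and damage-response genes, 9 were higher and 2 lower with A1. Plk2 (1.00 log2 units, SE 0.06, adjusted p = 2.58e-12), Gadd45b (0.96, SE 0.07, adjusted p = 3.38e-11) and Plk3 (0.93, SE 0.13, adjusted p = 1.58e-06) rose the most, and Chek2 (-0.40, SE 0.06, adjusted p = 2.8e-06) and Gadd45a (-0.38, SE 0.09, adjusted p = 0.000834) fell. The counts with A1 + OVA were 7 higher and 1 lower against control, and 3 higher and 1 lower against A1 alone, with Plk2 at 0.29 log2 units (SE 0.06, adjusted p = 0.00149) and Gadd45b at 0.29 (SE 0.06, adjusted p = 0.00209).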

How the data were processed

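RNA was sequenced from 12 samples, 4 in each of 3 groups taken from the sample titles. The authors made strand-specific polyA libraries, aligned paired reads to GRCm38 with STAR 2.7 and summarized them per gene with featureCounts 2.0 (versions from the submitters' processing notes). They deposited raw counts without normalization. From these counts, protein-coding genes (GENCODE M21, which held 99.53% of the identifiers) were kept with filterByExpr, scaled by TMM and tested with edgeR 4.0.16 (R 4.3.3) in one quasi-likelihood fit of all samples with group as the only term. P-values were adjusted by Benjamini-Hochberg over 11314 genes, and a gene was called under 0.05. The SE is the size of the log2 fold change divided by the root of the F statistic. Depth was 13702348 to 16881995 counts per sample, and precision is limited by 4 samples per group.

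The 40 genes, the other lists and the rule for named genes were chosen with earlier results of these data known. Values in every sample are given for Mki67, Cdk1, Ccnb1, Top2a, Pcna, Mcm2, Ccne1 and E2f1, for the 4 members of each class with the largest called change with A1, the 2 with the largest called difference between treatments, and up to 3 called against the median of their class. From the other lists Ccnd1, Cdkn1a, Cdkn1b, Myc, Foxm1 and up to 3 genes per direction were named. Samples of equal replicate number showed little correlation (mean correlation of deviations 0.0215 over 12 pairs of equal number and -0.00704 over 36 others). The labels do not say whether equal numbers share a culture, mouse or day, so pairing remains unknown. No pair of replicates agreed within sampling noise. On simulated counts for A1 against control (11200 genes), edgeR recovered 89% of genes changed by 0.5 log2 units and 100% of those changed by 1, and called 11 unchanged genes. The simulation changed 200 genes, as many up as down, whereas 7098 genes were called with A1 in the data. It held no change under 0.5 log2 units, so it does not measure how well the smaller changes of most members are recovered. Alternatives were DESeq2 1.42.0, other scaling, other filters, the replicate number as a block, only the groups compared, a threshold of 0.5 log2 units and each sample left out.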

Additional observations from a re-analysis of the deposited data

Results flagged for a closer look

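In 5 of the 120 combinations of gene and group (4.17%), 1 sample stood apart from the other 3 by more than the Dixon critical value at the 95% level, which chance exceeds in about 1 of 20 groups. Control replicate 2 was the lowest control for 3 replication genes, at 125 CPM for Mcm5 (next 134), 119 CPM for Mcm7 (next 131) and 43.7 CPM for Fen1 (next 52.0). A1 replicate 1 was the highest A1 sample for Fen1, at 77.4 CPM (next 70.1), and A1 replicate 4 the highest for Cdc45, at 45.5 CPM (next 42.7). Without control replicate 2 the rise of Mcm7 with A1 was no longer called (log2 fold change 0.09, adjusted p = 0.0523), while the rises of Mcm5 and Fen1 were still called.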

How the results depend on the processing

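None of the 120 member results (40 genes in 3 comparisons) went from a call in one direction to a call in the other under any alternative. Some log2 fold changes that were not called did change sign. That of Cenpe with A1 ran from -0.08 to 0.03 when single samples were left out. With the threshold of 0.5 log2 units, 4 G1/S genes were higher with A1, and the counts were 0 for G2/M genes in either direction with A1 and for both classes in the other comparisons. Scaling by library size alone gave medians of 0.26 for G1/S and -0.016 for G2/M with A1. With A1 + OVA it gave 6 G1/S genes higher and a median of 0.070, and 2 G2/M genes higher, 14 lower and a median of -0.14. It shifted the median of all genes by -0.08 with A1, and the share of called genes that were higher went from 50.5% to 37.4% with A1, from 51.5% to 39.0% with A1 + OVA and from 47.1% to 57.7% for A1 + OVA against A1. Leaving out single samples gave 1 to 3 G1/S genes lower with A1 + OVA and 4 to 9 G2/M genes lower against A1. The causes were not tested. With the replicate number as a block, 119 results kept their side of the threshold and 1 passed it (Gins2 in A1 + OVA against A1, log2 fold change -0.19, adjusted p = 0.0213). All genes called with the block numbered 7134, 6580 and 1488 in the 3 comparisons, beside 7098, 6518 and 1455 without it. DESeq2 lost 3 calls, upper-quartile factors lost 5 and gained 2, no filter lost 4 and gained 1, and only the groups compared lost 3.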
